A study of Rattus norvegicus with 10 samples.

Results

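The genes described here are 45 named genes of DNA replication and S phase. They were chosen by symbol, from their known part in origin licensing, the replicative helicase, the polymerases, the clamp loader, nucleotide supply and S-phase repair. Earlier results of these data were known when these genes and the other gene lists below were chosen. Shares of these lists are therefore descriptions and not tests. Of these, 44 have a row among the 22250 genes of the deposited table and E2f1 was not analysed here. All 44 passed the filter on low counts, among 14320 genes tested, so no member was lost to it. Messenger RNA of rat lung was sequenced in 10 libraries, named XBS 1 to 5 and MOD 1 to 5 in the titles. The study's design text describes rats in which neutrophilic asthma was induced with lipopolysaccharide and ovalbumin, and the giving of a formula abbreviated SP. The labels expand neither XBS nor MOD, tie neither to SP, and give no strain, age, dose or time, so the comparison is given as XBS over MOD. A human bronchial line, 16HBE, also stands in the labels, whereas the gene identifiers are those of the rat. The libraries hold whole-lung genes such as those of alveolar type 2 cells, at a summed 15724 to 32067 CPM in XBS, against 23540 to 30301 CPM in MOD, over 6 markers (CPM, counts scaled to a common library total). No label states whether each library is 1 animal, so p-values here describe only library-to-library spread, and that spread may be technical.

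A cell copies its genome once per cycle. In G1 the origin recognition complex, Cdc6 and Cdt1 load the ring of the minichromosome maintenance proteins (Mcm2 to Mcm7) onto origins, and geminin blocks Cdt1 later in the cycle. In S phase Cdc45 and the GINS complex turn that ring into the active helicase, polymerase alpha and primase start each strand, and polymerases delta and epsilon extend it on the sliding clamp PCNA, which replication factor C loads. E2F transcription factors switch on many of these genes at the G1/S boundary. In adult lung most cells rest, so transcripts of this kind come from few dividing cells, although several of the proteins also serve DNA repair in resting cells.

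Promoter sequence was not used to choose the genes. RefSeq promoters (250 bases before to 50 after the gene's start, rat build GRCr8) matched 37 of the 45 by symbol. They were searched on both strands for the E2F words TTTGGCGC, TTTCCCGC, TTTCGCGC and TTTGCCGC, where matches may overlap each other. At least 1 such word stood in 15 of the 37 promoters (40.5%), against 18 of 40 promoters of other replication and S-phase genes (45%), 2.25% of all 27457 promoters of the same length and 3.79% of the 10716 promoters of tested genes. All 5 of the MCM helicase genes with a promoter in the table (Mcm2, Mcm3, Mcm5, Mcm6 and Mcm7) held one. The word TTTGAA, the cell cycle homology region (CHR) known from genes of late cell cycle, stood in 2 of the 37 (5.41%). It stood in 11 of the 40 promoters of other replication and S-phase genes (27.5%) and 19 of 26 of a list of mitosis genes (73.1%). Of all promoters 18.1% held it, and of those of tested genes 11.9%. The word CCAAT, bound by NF-Y, stood in 24 of the 37 (64.9%), against 37.7% of all and 37.5% of those of tested genes. It stood in 17 of the 40 promoters of other replication and S-phase genes (42.5%) and 19 of 26 of the mitosis genes (73.1%). A match is a run of letters and was not tested as a binding site.

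**Figure D1:**
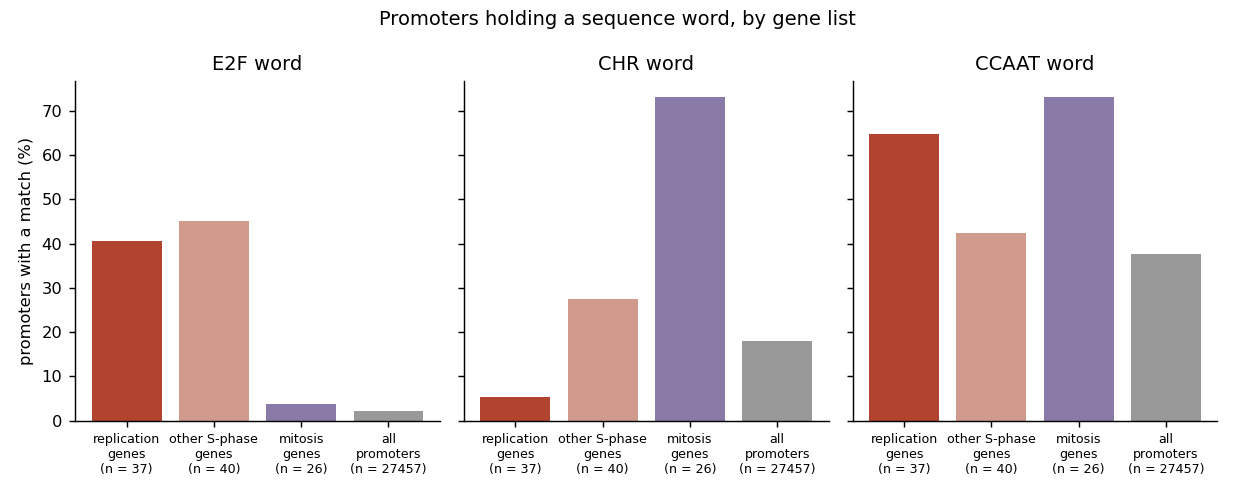
Percentage of RefSeq rat promoters that hold at least 1 E2F, CHR or CCAAT word on either strand, for 37 replication genes, 40 other S-phase genes, 26 mitosis genes and all 27457 promoters (n under each bar). The replication genes stand at 40.5% for the E2F word and 5.41% for the CHR word, and the mitosis genes at 3.85% and 73.1%.

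Of the promoters, 4 are shown because they pair different sequences with different values. They were picked with their values known and do not stand for the rest. Of 11 members with a promoter and an unadjusted p under 0.05 by edgeR, 4 held an E2F word, against 11 of the 26 others. Whether the words go with the values was not tested. Mcm5 and Mcm7, the MCM subunits with the largest and the smallest difference between the groups, both hold E2F words. Tk1, the member with the next smallest p after Mcm5, holds none of them in this window, and Tyms, whose groups overlapped, holds 1. Capitals mark the E2F words on either strand, and the sequences read 5′ to 3′ along the gene's strand.
Mcm5, chr19:13488563-13488862, plus strand: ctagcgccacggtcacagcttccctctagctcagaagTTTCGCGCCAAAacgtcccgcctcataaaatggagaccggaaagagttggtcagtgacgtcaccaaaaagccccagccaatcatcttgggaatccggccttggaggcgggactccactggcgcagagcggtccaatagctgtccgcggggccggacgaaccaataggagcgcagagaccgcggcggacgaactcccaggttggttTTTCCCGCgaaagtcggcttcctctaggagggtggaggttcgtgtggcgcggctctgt
Mcm7, chr12:22163129-22163428, minus strand: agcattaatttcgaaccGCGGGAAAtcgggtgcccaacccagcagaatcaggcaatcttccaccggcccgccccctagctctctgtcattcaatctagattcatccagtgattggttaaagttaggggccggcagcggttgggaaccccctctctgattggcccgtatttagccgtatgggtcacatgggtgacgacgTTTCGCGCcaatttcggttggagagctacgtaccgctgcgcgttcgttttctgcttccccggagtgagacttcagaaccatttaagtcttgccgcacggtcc
Tk1, chr10:103544728-103545027, minus strand: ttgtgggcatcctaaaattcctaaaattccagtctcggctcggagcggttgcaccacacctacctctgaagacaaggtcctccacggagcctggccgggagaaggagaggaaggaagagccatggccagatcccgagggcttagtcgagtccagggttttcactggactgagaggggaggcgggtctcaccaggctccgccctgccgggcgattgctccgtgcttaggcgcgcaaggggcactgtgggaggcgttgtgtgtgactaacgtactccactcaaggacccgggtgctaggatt
Tyms, chr9:120776034-120776333, minus strand: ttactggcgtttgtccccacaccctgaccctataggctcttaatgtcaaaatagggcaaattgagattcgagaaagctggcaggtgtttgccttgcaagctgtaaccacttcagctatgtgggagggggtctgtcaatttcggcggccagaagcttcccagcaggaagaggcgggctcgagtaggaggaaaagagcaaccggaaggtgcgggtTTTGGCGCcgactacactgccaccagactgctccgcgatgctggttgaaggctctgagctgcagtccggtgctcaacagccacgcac

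The comparison of XBS with MOD asks whether this machinery differed in level between the lungs. Most of its genes were slightly higher in XBS, and no single gene passed the test over all genes. Of the 44 members 39 had a positive log2 fold change (88.6%), where 51.9% of all tested genes did. Many of these values were small: 15 of the 44 lay within 1.1-fold of no change, in either direction. In 9 of the 44 the sign changed when single libraries were left out. The median log2 fold change was 0.23 (1.17-fold), against 0.01 over all tested genes, and single values ran from -0.30 (Cdc45) to 0.80 (Exo1). In whole tissue, more cells of a type and more RNA per cell cannot be told apart. By edgeR's quasi-likelihood test with Benjamini-Hochberg adjustment, 0 members rose, 0 fell and 44 did not pass an adjusted p of 0.05, where 0.0768% of all genes passed, 0.0279% higher and 0.0489% lower. At an unadjusted p under 0.05 edgeR gave 13 members higher (29.5%) and 0 lower, where 7.4% of all genes were higher at that level and 5.78% lower. DESeq2 called 3 members higher and 0 lower (Mcm5, Tk1 and Rrm2), where it called 1.41% of all genes higher. Limma voom with sample weights called 2 (Mcm5 and Tk1), where it called 0.3% of all genes higher. In 6 members every XBS library lay above every MOD library, which is 13.6% of them, where 1.61% of all genes were separated in that direction. These 6 were Mcm5, Mcm10, Tk1, Chaf1a, E2f8 and Brca1, and 0 members were separated in the other direction, where 1.13% of all genes were.

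**Figure D2:**
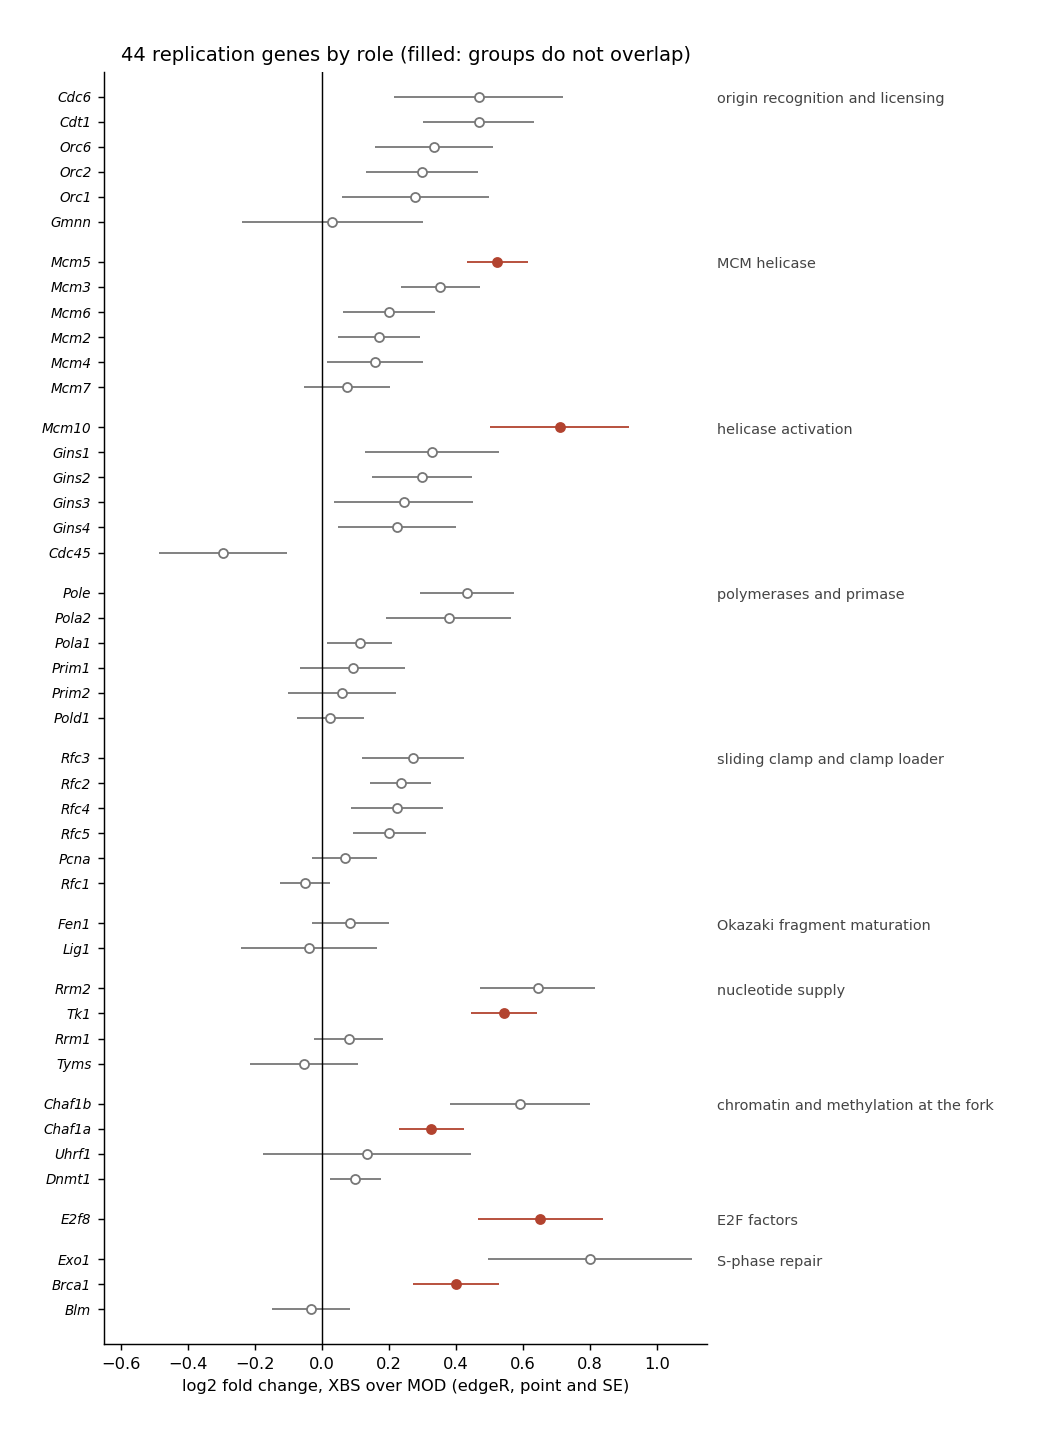
The log2 fold change of XBS over MOD with its standard error from edgeR for each of the 44 replication genes, by role, where filled points mark the 6 genes whose groups do not overlap. Most points lie to the right of 0, from -0.30 for Cdc45 to 0.80 for Exo1, and no gene passed an adjusted p of 0.05.

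The 6 genes of origin recognition and licensing, which include the inhibitor gene Gmnn, all had positive log2 fold changes. Their median was 0.32, and none was separated between the groups. Cdt1, the licensing factor that brings the MCM ring to origins, had 9.12, 9.48, 6.87, 7.78 and 7.32 CPM in XBS 1 to 5 and 7.02, 4.47, 5.12, 6.65 and 6.02 CPM in MOD 1 to 5. The groups overlapped only through XBS 3, which lay below MOD 1. The difference was 1.38-fold (log2 fold change 0.47 ± 0.17 SE, adjusted p = 0.287 by edgeR). Cdc6, the ATPase that acts with Cdt1, had a like fold (1.38-fold) with wider overlap, at 2.53 to 4.89 CPM in XBS, against 2.12 to 4.32 CPM in MOD. Orc1, Orc2 and Orc6, subunits of the origin recognition complex, had log2 fold changes of 0.28, 0.30 and 0.33. Orc2 was high in XBS 1 and XBS 2, at 48.2 and 47.5 CPM, against 25.5 to 39.7 CPM in MOD, whereas XBS 3, XBS 4 and XBS 5 lay at 27.9 to 36.1 CPM within the MOD range. Gmnn, which encodes geminin, the inhibitor of Cdt1, had a log2 fold change of 0.03 ± 0.27 (SE). XBS 2 was the lowest (5.92 CPM) and XBS 5 the highest (17.7 CPM) of all 10 libraries. With single libraries left out its log2 fold change ran from -0.17 to 0.20. Whether Gmnn differs from the licensing factors was not tested, and its standard error is wide.

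The MCM ring needs its subunits in equal number, and their transcripts differed in size of change. Mcm5 lies on chromosome 19, positions 14523554 to 14561278 by the authors' coordinates, of a build the sources do not name. It had 23.1, 22.9, 24.6, 22.6 and 26.7 CPM in XBS 1 to 5. In MOD 1 to 5 it had 18.0, 17.3, 17.9, 15.2 and 15.0 CPM. Every XBS library lay above every MOD library. Mcm5 averaged 24.0 ± 1.71 CPM in XBS and 16.7 ± 1.48 CPM in MOD (SD, n = 5 each), 1.44-fold higher with a log2 fold change of 0.52 ± 0.09 (SE). Its adjusted p was 0.0854 by edgeR, 0.00017 by DESeq2 and 0.0462 by voom. Mcm3 was next, at 22.2 to 32.6 CPM in XBS, against 18.4 to 23.7 CPM in MOD (1.28-fold, adjusted p = 0.259 by edgeR). Mcm6, Mcm2 and Mcm4 had log2 fold changes of 0.20, 0.17 and 0.16 with overlapping groups (adjusted p = 0.532, 0.554 and 0.643 by edgeR). Mcm7 had 36.9, 46.3, 42.8, 37.1 and 53.6 CPM in XBS 1 to 5 and 37.3, 46.5, 33.8, 46.5 and 41.6 CPM in MOD 1 to 5. Its groups lay over each other (1.05-fold, adjusted p = 0.823 by edgeR), and without XBS 5 its log2 fold change turned to -0.01.

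Compared per gene length, in the deposited FPKM (fragments scaled by gene length and library total), Mcm7 was the most abundant MCM transcript in all 10 libraries. It stood at 17.6 ± 2.98 FPKM in XBS and 16.4 ± 2.11 FPKM in MOD (SD, n = 5 each). The other 5 subunits averaged between 7.64 and 9.49 FPKM in XBS and between 5.23 and 8.34 FPKM in MOD. Mcm5 had the lowest mean of the 6 in both groups, at 7.64 ± 0.587 FPKM in XBS and 5.23 ± 0.515 FPKM in MOD. The ratio of Mcm7 to Mcm5 was 2.03 to 2.58 in XBS and 2.40 to 3.90 in MOD, with a median of 2.21 in XBS and 3.42 in MOD. The ranges of the ratio overlapped between the groups, and this ratio was not tested.

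**Figure D3:**
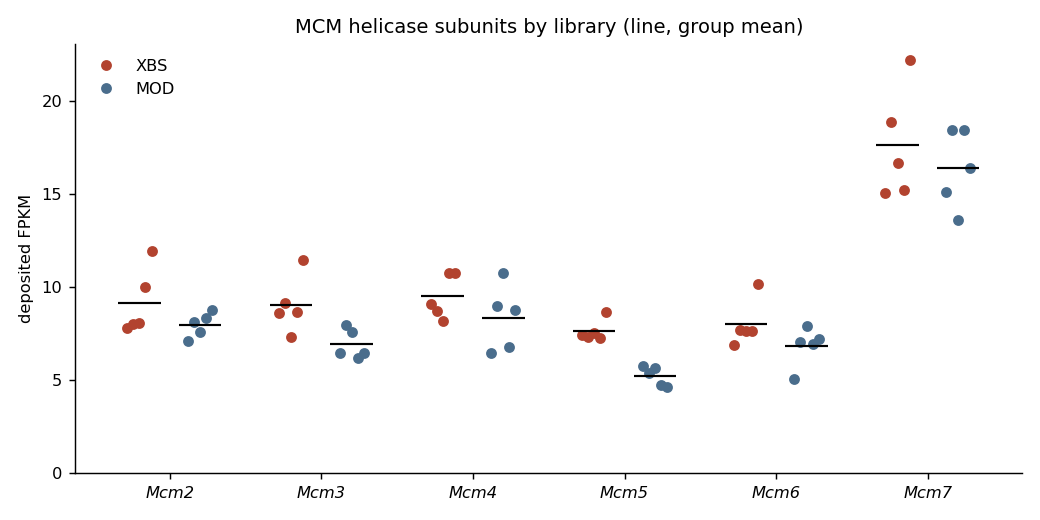
Deposited FPKM of the 6 MCM helicase subunits in each of 5 XBS and 5 MOD libraries, with a line at each group's mean. Mcm7 stands highest in every library, and Mcm5 is the subunit whose XBS points (7.27 to 8.68 FPKM) all lie above its MOD points (4.64 to 5.72 FPKM).

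Genes that turn the loaded ring into a working helicase were mostly higher in XBS, with 1 gene in the other direction. Mcm10, which acts as helicase start-up factor, had 6.08, 7.85, 5.52, 5.63 and 4.23 CPM in XBS 1 to 5 and 4.16, 2.96, 3.88, 2.73 and 4.18 CPM in MOD 1 to 5. The groups just failed to touch, with XBS 5 above MOD 5 by a small margin. The difference was 1.64-fold (log2 fold change 0.71 ± 0.21 SE, adjusted p = 0.209 by edgeR). The 4 GINS genes had log2 fold changes of 0.22 to 0.33 and overlapping groups. Gins2 was the most abundant of them per length in every library, at a mean of 11.5 FPKM in XBS and 9.23 FPKM in MOD, where Gins3 averaged 2.13 FPKM in XBS and 1.77 FPKM in MOD. Cdc45, a part of the active helicase, had 5.59 to 8.07 CPM in XBS, against 5.88 to 11.4 CPM in MOD. It was 1.23-fold lower in XBS, with an adjusted p of 0.505 by edgeR and groups that overlapped. In the deposited coordinates Cdc45 shares 1425 bases with Cldn5, a gene on the other strand that is listed with 0 counts in this table, although endothelial cells express it strongly. The part of this overlap in the value was not tested.

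The polymerases split by subunit. Pole, the catalytic subunit of the leading strand polymerase epsilon, had 9.62, 12.4, 11.4, 9.74 and 10.7 CPM in XBS 1 to 5 and 7.10, 9.88, 8.56, 7.71 and 6.66 CPM in MOD 1 to 5. Only MOD 2 reached into the XBS range. The difference was 1.35-fold (log2 fold change 0.43 ± 0.14 SE, adjusted p = 0.246 by edgeR). Pold1, the catalytic subunit of the lagging strand polymerase delta, had almost equal groups, at 15.6 to 17.5 CPM in XBS, against 14.1 to 18.6 CPM in MOD (1.02-fold, adjusted p = 0.928 by edgeR). Pola2, a subunit of polymerase alpha, followed the same libraries as Orc2, with 45.3 and 46.0 CPM in XBS 1 and XBS 2, 26.3 to 29.5 CPM in the other 3 XBS libraries and 20.5 to 31.1 CPM in MOD. Pola2 shares 7643 bases with Cdc42ep2 on the same strand in the deposited coordinates, so its reads may be split or shared. Pola1, Prim1 and Prim2, the other parts of that enzyme, had log2 fold changes of 0.11, 0.09 and 0.06 with overlapping groups, and the sign of Prim1 turned to -0.02 without MOD 2.

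The gene of the sliding clamp, Pcna, had a high level and a small difference between the groups. Together with the clamp loader genes its role had a median log2 fold change of 0.21, where all members had 0.23. Pcna was the most abundant member per length, at 61.6 ± 6.29 FPKM in XBS (SD, n = 5) against a mean of 57.7 FPKM in MOD. In CPM it had 61.4, 65.6, 77.0, 79.4 and 71.1 in XBS 1 to 5 and 54.7, 70.7, 72.4, 71.0 and 69.4 in MOD 1 to 5. The groups overlapped widely and MOD 1 stood low by itself (1.05-fold, adjusted p = 0.786 by edgeR). Of the 5 clamp loader genes, Rfc2 to Rfc5 had log2 fold changes of 0.20 to 0.27. Rfc2 came closest to separation, at 19.7 to 24.6 CPM in XBS, against 16.7 to 19.8 CPM in MOD (adjusted p = 0.323 by edgeR). Rfc1, the large subunit, had overlapping groups, with 59.2 to 68.9 CPM in XBS, against 59.3 to 73.7 CPM in MOD (log2 fold change -0.05 ± 0.07 SE). Fen1, the flap nuclease, and Lig1, the ligase that seals Okazaki fragments, had log2 fold changes of 0.08 and -0.04, with adjusted p = 0.773 and 0.949 by edgeR.

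Genes of nucleotide supply differed in size of change. Tk1, thymidine kinase of the salvage route, had 22.5, 24.8, 22.7, 20.2 and 22.0 CPM in XBS 1 to 5 and 17.9, 15.7, 15.4, 14.2 and 13.8 CPM in MOD 1 to 5. Every XBS library lay above every MOD library, and the groups averaged 22.5 ± 1.63 CPM in XBS, against 15.4 ± 1.62 CPM in MOD (SD, n = 5 each). The difference was 1.46-fold (log2 fold change 0.54 ± 0.10 SE), with adjusted p = 0.0858 by edgeR, 0.000219 by DESeq2 and 0.0388 by voom. Rrm2, the regulated subunit of ribonucleotide reductase, had 14.1, 10.3, 20.1, 18.8 and 19.0 CPM in XBS 1 to 5 and 10.5, 10.5, 10.5, 10.1 and 11.0 CPM in MOD 1 to 5. The MOD libraries were nearly identical, 4 XBS libraries lay above them and XBS 2 lay among them. Rrm2 was 1.56-fold higher (log2 fold change 0.64 ± 0.17 SE, adjusted p = 0.174 by edgeR and 0.0312 by DESeq2), and without XBS 2 its log2 fold change was 0.77 (adjusted p = 0.094 by edgeR). Rrm1, the large subunit of the same enzyme, which is less tied to S phase, was 1.06-fold higher with overlapping groups (49.7 to 60.1 CPM in XBS, against 41.6 to 58.8 CPM in MOD). Tyms, thymidylate synthase of the de novo route, had 12.2, 11.3, 19.1, 18.4 and 16.1 CPM in XBS 1 to 5 and 13.9, 18.5, 14.9, 16.4 and 16.2 CPM in MOD 1 to 5. XBS 1 and XBS 2 were the lowest of all 10 and XBS 3 the highest, so the log2 fold change of -0.05 ± 0.16 (SE) joins unlike libraries.

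**Figure D4:**
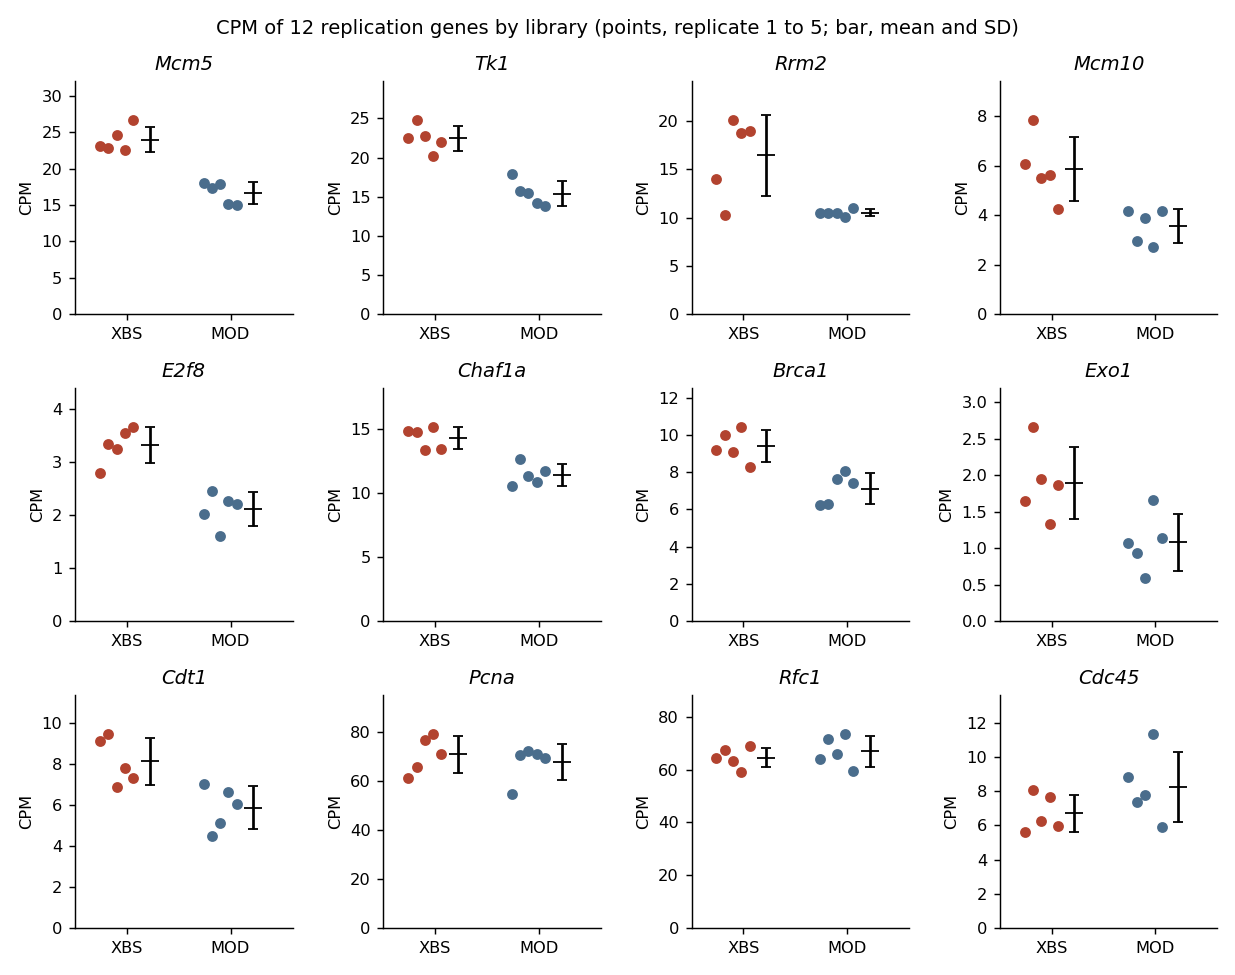
CPM of 12 replication genes in each XBS and MOD library (points, replicates 1 to 5 from left to right, with mean and SD beside them), each axis starting at 0. Mcm5, Tk1, Mcm10, E2f8, Chaf1a and Brca1 have XBS points that all lie above the MOD points, whereas Pcna, Rfc1 and Cdc45 overlap.

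Genes of chromatin assembly and of E2F control were among the higher ones. Chaf1a, the large subunit of the chromatin assembly factor CAF-1, had 14.9, 14.8, 13.4, 15.2 and 13.4 CPM in XBS 1 to 5 and 10.5, 12.7, 11.3, 10.8 and 11.8 CPM in MOD 1 to 5. The groups did not overlap (log2 fold change 0.33 ± 0.10 SE, adjusted p = 0.214 by edgeR). Chaf1b, its partner subunit, was much scarcer at 1.92 to 2.40 CPM in XBS, against at most 1.93 CPM in MOD, and 1.51-fold higher (adjusted p = 0.287 by edgeR). Its groups met at XBS 2 and MOD 4. E2f8, a repressor of the E2F family that is itself an E2F target, had 2.79, 3.33, 3.23, 3.54 and 3.66 CPM in XBS 1 to 5 and 2.01, 2.45, 1.61, 2.26 and 2.20 CPM in MOD 1 to 5. All XBS libraries lay above all MOD libraries (1.57-fold, log2 fold change 0.65 ± 0.19 SE, adjusted p = 0.207 by edgeR), at only 22 to 56 counts per library. Dnmt1, which copies DNA methylation onto the new strand, was 1.07-fold higher with overlapping groups. Uhrf1, which guides Dnmt1 to that strand, ranged from 7.10 to 18.2 CPM in XBS, against 5.38 to 13.4 CPM in MOD, a spread within groups far above the difference between them (log2 fold change 0.13 ± 0.31 SE).

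Of the repair genes, Brca1, which acts in homologous recombination, had 9.20, 9.99, 9.09, 10.4 and 8.25 CPM in XBS 1 to 5 and 6.24, 6.27, 7.61, 8.04 and 7.44 CPM in MOD 1 to 5. The groups did not overlap (1.32-fold, log2 fold change 0.40 ± 0.13 SE, adjusted p = 0.239 by edgeR). Exo1, an exonuclease of mismatch repair and end resection, had the largest fold of all members (1.74-fold, log2 fold change 0.80 ± 0.30 SE, adjusted p = 0.315 by edgeR) and the lowest level (mean 0.592 FPKM). It rested on 8 to 36 counts per library, at 1.33 to 2.67 CPM in XBS, against 0.585 to 1.66 CPM in MOD, with XBS 1 and XBS 4 inside the MOD range. Blm, the helicase that dissolves recombination intermediates, had overlapping groups, with a log2 fold change of -0.03 ± 0.12 (SE) and adjusted p = 0.92 by edgeR.

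By library, the members' mean level did not overlap between the groups. Each gene's log2(CPM + 0.5) was centred on its own mean and averaged over the members, which gave 0.071, 0.162, 0.121, 0.088 and 0.135 in XBS 1 to 5. The same average was -0.172, -0.082, -0.083, -0.143 and -0.099 in MOD 1 to 5. Their summed level was 861 to 915 CPM in XBS, against 741 to 814 CPM in MOD. The highest value of a member fell in an XBS library for 37 members and in a MOD library for 7, and the lowest in an XBS library for 6 and in a MOD library for 38. XBS 2 held 15 of the highest values and MOD 1 held 14 of the lowest. Neither these counts nor the averages were made over all tested genes, so they only describe the members. XBS 2 was at once the highest library for Gins2 (63.4 CPM) and the lowest of its group for Rrm2, so the members did not rank the libraries alike.

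**Figure D5:**
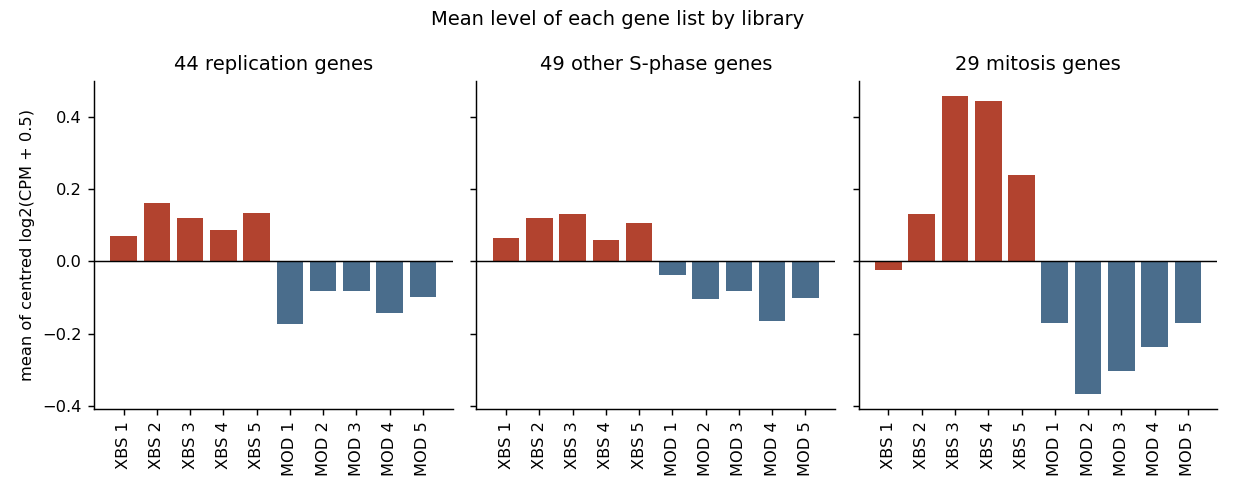
Mean over a gene list of centred log2(CPM + 0.5) in each library, for the 44 replication genes, 49 other S-phase genes and 29 mitosis genes. The replication genes run from 0.071 to 0.162 in XBS and from -0.172 to -0.082 in MOD, and the mitosis genes vary more among XBS libraries, from -0.025 in XBS 1 to 0.458 in XBS 3.

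Other genes of the pathway were also mostly higher in XBS. Of 49 tested, 39 had a positive log2 fold change, with a median of 0.17; 0 rose, 0 fell and 49 did not pass by edgeR. At an unadjusted p under 0.05 edgeR gave 13 higher and 1 lower, where 7.4% of all genes were higher and 5.78% lower. DESeq2 called 5 higher and 0 lower after adjustment, where it called 1.41% of all genes higher and 1.02% lower. Ticrr, which carries Cdc45 to the loaded ring, was 2.15-fold higher, at 3.67 to 5.52 CPM in XBS, against 1.76 to 2.79 CPM in MOD (adjusted p = 0.0858 by edgeR). Ccne1, the cyclin that drives entry into S phase, was 2.24-fold higher (3.53 ± 0.94 CPM in XBS and 1.57 ± 0.495 CPM in MOD, SD, n = 5 each, adjusted p = 0.131 by edgeR). E2f2, an activating E2F factor, was 1.35-fold higher and Pold4, a small subunit of polymerase delta, 1.24-fold higher (adjusted p = 0.129 and 0.162 by edgeR). Clspn, the checkpoint adaptor claspin, had the opposite direction (1.45-fold lower) and was chosen after its values were seen, as the only gene of the list at an unadjusted p under 0.05 in that direction. It had at most 9.90 CPM in any XBS library and at least 10.4 CPM in any MOD library (adjusted p = 0.248 by edgeR). Of the list, 8 genes were separated with XBS above MOD and 2, Clspn and Ssrp1, with XBS below MOD. Over all genes 1.61% were separated higher and 1.13% lower.

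Mitosis genes, which act later in the cycle, had larger differences in the same libraries. Of 29 tested, 28 had a positive log2 fold change, with a median of 0.59, where the replication genes had 0.23; whether the lists differ was not tested. By edgeR 2 of the 29 rose, 0 fell and 27 did not pass, and 13 were separated with XBS above MOD. At an unadjusted p under 0.05 edgeR gave 26 of the 29 higher and 0 lower, where 7.4% of all genes were higher and 5.78% lower. After adjustment DESeq2 called 17 higher and voom 8, where they called 1.41% and 0.3% of all genes higher. Over all genes 1.61% were separated with XBS above MOD. The 2 that rose by edgeR were Mki67, the gene of the Ki-67 antigen (1.72-fold, adjusted p = 0.0445), and Bub1, a checkpoint kinase (1.60-fold, adjusted p = 0.0412). The adjusted p missed 0.05 in 11 of 19 alternatives for Mki67 and in 13 of 19 for Bub1, while the log2 fold change was 0.63 to 0.85 for Mki67 (0.78 over all libraries) and 0.61 to 0.74 for Bub1 (0.68 over all libraries).

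Markers of several cell types were mostly higher or mostly lower in XBS, with 0 passing by edgeR, where 51.9% of all tested genes were higher. The summed level of each cell type overlapped between the groups. The part of these markers in the replication values was not tested. Of the B cell and germinal centre markers 8 of 8 tested were higher in XBS, with a summed level of 102 to 261 CPM in XBS, against 57.4 to 138 CPM in MOD, highest in XBS 5. Neutrophil markers were higher for 8 of 8 (267 to 847 CPM in XBS, highest in XBS 2, and 244 to 469 CPM in MOD). Alveolar macrophage markers were higher for 6 of 6 tested (354 to 573 CPM in XBS, against 340 to 431 CPM in MOD), and Marco was under 1 CPM in every library. Of the tested ones, Mrc1 and Pparg had log2 fold changes of 0.04 and 0.02, against 0.40 to 0.83 for Cd68, Fabp4, Itgax and Siglec1. Alveolar type 1 markers were lower for 7 of 7 (3399 to 5446 CPM in XBS, against 5358 to 6320 CPM in MOD) and endothelial markers for 5 of 6 (2331 to 3589 CPM in XBS, against 3328 to 4798 CPM in MOD). Thymocyte markers were higher for 5 of 7 (98.2 to 130 CPM in XBS, against 78.7 to 129 CPM in MOD), but their defining genes Rag1, Rag2 and Ptcra were under 1 CPM in every library. Of the myeloid precursor markers 1 of 2 tested was higher (29.2 to 36.4 CPM in XBS, against 9.39 to 34.6 CPM in MOD), and Mpo, Elane, Ctsg and Ms4a3 were under 1 CPM in every library. The summed level of erythroid precursor markers was 28.0 to 39.7 CPM in XBS, against 34.3 to 57.5 CPM in MOD, with Gata1 under 1 CPM. Most of it was Alas2, which makes haem in red cell precursors and was 1.56-fold lower in XBS (adjusted p = 0.143 by edgeR and 0.0115 by DESeq2), whereas Hemgn and Klf1 had log2 fold changes of 0.03 and 0.07. Among the other markers DESeq2 called Akap5, Clic5 and Rtkn2 of the alveolar type 1 list lower (adjusted p = 0.0075, 0.010 and 0.0043). It called Itgax of the alveolar macrophage list higher (adjusted p = 0.017 by DESeq2). Ciliated cell markers were lower for 6 of 7 (342 to 763 CPM in XBS, against 533 to 650 CPM in MOD) and club cell markers for 3 of 5 (2012 to 8540 CPM in XBS, against 7497 to 11616 CPM in MOD), with XBS 2 and XBS 3 lowest in both. Of the members, 37 had a positive log2 fold change without XBS 2 and XBS 3, and the median log2 fold change was then 0.20. Without XBS 5 alone 37 were positive, with a median of 0.26. Of 10 glucocorticoid-induced genes, 3 fell by edgeR, 0 rose and 7 did not pass, where 0.0489% of all genes fell and 0.0279% rose. The summed level of these 10 was 1019 to 1389 CPM in XBS, against 1616 to 2443 CPM in MOD.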

How the data were processed

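RNA-seq libraries of rat lung, 5 named XBS and 5 named MOD, took group and replicate number from their titles. Per the labels' protocols, RNA was isolated with Trizol and messenger RNA was purified, fragmented, ligated to adapters and amplified. The submitters' processing notes list mm10 (mouse) beside hg38 and GRCh38 (human); no source used here names the rat build, the aligner, the counter or the strand setting. Without strand, reads of overlapping genes cannot be told apart. The authors deposited 1 table with counts and FPKM for every gene, per the file headers. Its counts are whole and unscaled, with totals of 11998979 to 15518929 per library, so that 3 counts equal 0.19 to 0.247 CPM (counting error only). The authors' deposited FPKM could be rederived from counts, lengths and totals, and was used only to compare levels between genes.

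After filterByExpr (at least 10 counts, total of at least 15) and TMM scaling, the quasi-likelihood test of edgeR 4.0.16 (R 4.3.3, robust glmQLFit, then glmQLFTest) compared XBS with MOD. P-values were adjusted by Benjamini-Hochberg over the 14320 tested genes. A standard error is the size of the log2 fold change over the root of its F statistic. DESeq2 1.42.0, limma 3.58.1 voom with sample weights, other scalings and filters, the replicate number as a block, and libraries left out were alternatives. Named genes were the 2 members of smallest p per role, members with a negative fold change, the 3 highest and lowest in FPKM, the 6 MCM subunits, the 4 other pathway genes of smallest p and mitosis genes past the threshold; other members are given for completeness. The members and lists were chosen with earlier results of these data known. RefSeq promoters carry the build GRCr8.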

Additional observations from a re-analysis of the deposited data

Results flagged for a closer look

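Within a group of 5 libraries, 4 of 88 checked sets of values had a library far from the others, where chance gives about 1 in 20. Pcna stood at 54.7 CPM in MOD 1, against 69.4 to 72.4 CPM in the other MOD libraries. Pola1 stood at 15.6 CPM in MOD 1, against 19.5 to 20.6 CPM in the other MOD libraries, and at 23.2 CPM in XBS 5, against 19.5 to 20.5 CPM in the other XBS libraries. Chaf1b stood at 1.92 CPM in XBS 2, against 2.29 to 2.40 CPM in the other XBS libraries.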

How the results depend on the processing

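The count of genes past the threshold was 11 by edgeR, 348 by DESeq2, 67 by voom, 1 with the replicate number as a block, 3 without XBS 2 and XBS 3, and 0 without XBS 5 and MOD 4, where edgeR still gave 1340 genes an unadjusted p under 0.05. With single libraries left out it was 4 to 15, and it fell by over 1.5 times without MOD 2 (5), MOD 3 (7), MOD 4 (4), XBS 1 (5), XBS 2 (4) and XBS 3 (4). Members called higher were 0 by edgeR (13 at an unadjusted p under 0.05), 3 by DESeq2, 2 by voom and 0 under each other alternative, and members called lower were 0 under all. Other replication genes called were 0 by edgeR, 5 by DESeq2 and 1 by voom. The members' median log2 fold change was 0.17 without XBS 5 and MOD 4 and 0.20 to 0.26 without single libraries, and 37 to 41 members had a positive value without single libraries. The replicate block left 0 members called (median 0.24, smallest adjusted p = 0.166 by edgeR). Same-numbered libraries did not deviate together in every pair (correlations -0.12 to 0.33), and whether they share more than a number was not tested. With single libraries left out, the log2 fold change changed sign in 9 of the 44 members, and 33 were positive and 2 negative throughout. The 9 had ranges of -0.084 to 0.019 for Blm, -0.17 to 0.048 for Lig1, -0.14 to 0.041 for Tyms, -0.020 to 0.16 for Prim1, -0.013 to 0.13 for Mcm7, -0.17 to 0.20 for Gmnn, -0.021 to 0.079 for Pold1, -0.0071 to 0.18 for Prim2 and -0.074 to 0.27 for Uhrf1. The adjusted p of Bub1 missed the threshold in 13 of 19 alternatives (log2 fold change 0.61 to 0.74) and that of Mki67 in 11 (0.63 to 0.85). The causes were not tested. Of the members, 9 had a mean under 5 CPM, where few counts limit the precision.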
